A study of Mus musculus with 4 samples.

Results

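Lyz2, Lyz1 and Wfdc17 encode secreted proteins of myeloid cells. They are 3 of the 15586 genes in a table of transcript levels from sorted retinal microglia, chosen by symbol with their levels in these same libraries already known. Their difference between knockout and control microglia is therefore a description and carries no test. Values are FPKM, fragments scaled to transcript length and to library size, so levels of different genes can be set side by side per length.

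The TAK1 knockout group (TAK1_KO, 2 libraries) came from adult mice that received tamoxifen at 75 mg/kg on 5 consecutive days by intraperitoneal injection. The control group (2 libraries) received corn oil in the same way for 5 days. By the protocol, mice of both groups carried 1 allele of Cx3cr1CreER, a recombinase that tamoxifen activates and that is expressed where Cx3cr1 is, together with the floxed gene of the kinase TAK1 (Tak1fl/fl). TAK1 relays signals of cytokine and innate immune receptors. The genotype field of both knockout samples reads Tak3fl/fl. Mice were 2 months old, and each library was made from 200 cells sorted by EYFP. Cx3cr1 is active in microglia and also in monocytes and other macrophages, so the driver does not single out microglia. Only the knockout group received tamoxifen, so deletion and drug cannot be told apart. The labels name no separate animals for the libraries, so the spread between replicates may be technical. The series title refers to retinitis pigmentosa, but the labels of these samples give no disease allele.

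Lysozyme is an enzyme that cuts the peptidoglycan of bacterial cell walls. Mice have a pair of neighbouring lysozyme genes: Lyz2 (lysozyme M) is the form of macrophages, monocytes and neutrophils and is also transcribed in microglia, and Lyz1 (lysozyme P) is known mainly from Paneth cells of the intestine. Wfdc17, also called Amwap, encodes a small protein with a whey acidic protein (WAP) domain, a fold stabilised by disulphide bonds that is shared with protease inhibitors. In mouse it is known from activated macrophages and microglia, where it dampens inflammatory responses.

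The lysozyme pair lies on mouse chromosome 10 and Wfdc17 on chromosome 11 (GRCm38.p6, RefSeq gene table). Lyz2 (gene ID 17105) spans positions 117277541 to 117282272 and Lyz1 (gene ID 17110) positions 117287795 to 117292868, both on the minus strand and 5522 bases apart. Wfdc17 (gene ID 100034251) spans positions 83704056 to 83706269 on the plus strand. The annotated transcripts (GENCODE M21) of Lyz2 and Lyz1 have 4 exons each and that of Wfdc17 has 3. The coding sequences have 447, 447 and 231 bases in Lyz2, Lyz1 and Wfdc17.

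Because reads of near-identical genes can be assigned to either copy, the start of the 2 lysozyme coding sequences is shown, from base 1 to base 120. Capitals mark the bases at which the 2 genes differ.
Lyz2: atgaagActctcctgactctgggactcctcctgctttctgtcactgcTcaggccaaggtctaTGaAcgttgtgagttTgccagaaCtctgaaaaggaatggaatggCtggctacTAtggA
Lyz1: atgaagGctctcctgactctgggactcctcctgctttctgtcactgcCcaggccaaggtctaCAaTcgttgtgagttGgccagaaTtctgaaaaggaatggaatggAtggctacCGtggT
Of the 22 differing bases in the whole coding sequence, 11 lie in this stretch, and the coding sequences were 95.1% identical. Over the whole transcripts the identity was 92%. Of all 50-base windows of the Lyz2 transcript, 15.4% occurred unchanged in Lyz1, and of all 100-base windows 1.97%. The sources used here give neither the read length nor the treatment of reads matching both genes, so the Lyz1 values in particular are uncertain.

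The 250 bases before each gene start are shown because the 3 genes stood lower together in the knockouts. They come from RefSeq (GRCm38.p6) and read 5′ to 3′ on the strand of the gene, for Lyz2 chr10:117282273-117282522 (minus), for Lyz1 chr10:117292869-117293118 (minus) and for Wfdc17 chr11:83703806-83704055 (plus). Capitals mark matches to the motifs named below.
Lyz2: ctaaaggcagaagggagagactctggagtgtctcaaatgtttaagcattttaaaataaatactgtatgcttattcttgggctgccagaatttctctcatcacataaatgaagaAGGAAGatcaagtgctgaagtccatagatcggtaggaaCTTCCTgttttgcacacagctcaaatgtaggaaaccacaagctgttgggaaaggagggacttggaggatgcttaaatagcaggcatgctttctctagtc
Lyz1: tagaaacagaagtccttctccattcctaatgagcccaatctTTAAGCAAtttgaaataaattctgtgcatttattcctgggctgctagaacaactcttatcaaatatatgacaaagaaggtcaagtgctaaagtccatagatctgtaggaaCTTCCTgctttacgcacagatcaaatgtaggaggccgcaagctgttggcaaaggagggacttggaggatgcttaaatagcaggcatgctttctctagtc
Wfdc17: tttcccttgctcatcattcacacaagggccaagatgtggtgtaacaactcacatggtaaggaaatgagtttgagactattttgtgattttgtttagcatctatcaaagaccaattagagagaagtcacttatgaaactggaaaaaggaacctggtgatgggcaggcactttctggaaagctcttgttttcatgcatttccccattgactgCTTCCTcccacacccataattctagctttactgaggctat
The last 50 bases before the gene start were identical in Lyz2 and Lyz1, and the whole windows were 60.8% identical without gaps. The motifs below were searched on both strands, and none of their matches overlapped. AGGAAG, a core bound by Ets factors such as the myeloid factor PU.1, began at positions -137 and -99 in Lyz2, at -99 in Lyz1 and at -40 in Wfdc17, counted from the gene start. It occurred in 29.5% of all 32851 promoter windows of this length. TTGCNNAA, a C/EBP motif, had 1 match, at -209 in Lyz1, and occurred in 9.56% of all windows. A kB motif (GGG and CC set 5 bases apart, T being the fourth of these), the AP-1 motif TGANTCA and the TATA motif TATAAA had no match in the 3 windows, and occurred in 14.9%, 6.75% and 12.4% of all windows.

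Lyz2 was among the most abundant transcripts of these cells and stood lower in both knockout libraries. It read 2484 and 1894 FPKM in TAK1_KO 1 and 2, against 9227 and 14879.7 FPKM in control 1 and 2. The groups did not overlap, and the lower control was 3.71 times the higher knockout. The knockout mean of 2189 ± 417 FPKM was 18.2% of the control mean of 12053 ± 3997 FPKM (SD, n = 2 each), a knockout minus control difference of -2.43 in log2(FPKM + 1).

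The level of Wfdc17 lay between those of Lyz2 and Lyz1 in every library. It read 796 and 992 FPKM in TAK1_KO 1 and 2, against 4797 and 6313 FPKM in control 1 and 2. Both knockouts lay below both controls, the lower control being 4.84 times the higher knockout. The means were 894 ± 138 FPKM in knockouts and 5555 ± 1072 FPKM in controls (SD, n = 2 each), a difference of -2.63 on the log2 scale.

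Lyz1 was far lower than Lyz2 but differed by a similar factor. It read 121 and 99.9 FPKM in TAK1_KO 1 and 2, against 401 and 769 FPKM in control 1 and 2. Again the groups did not overlap, and control 2 lay well above control 1. The means were 110.4 ± 14.8 FPKM in knockouts and 585 ± 259.8 FPKM in controls (SD, n = 2 each), a difference of -2.33 on the log2 scale.

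**Figure D1:**
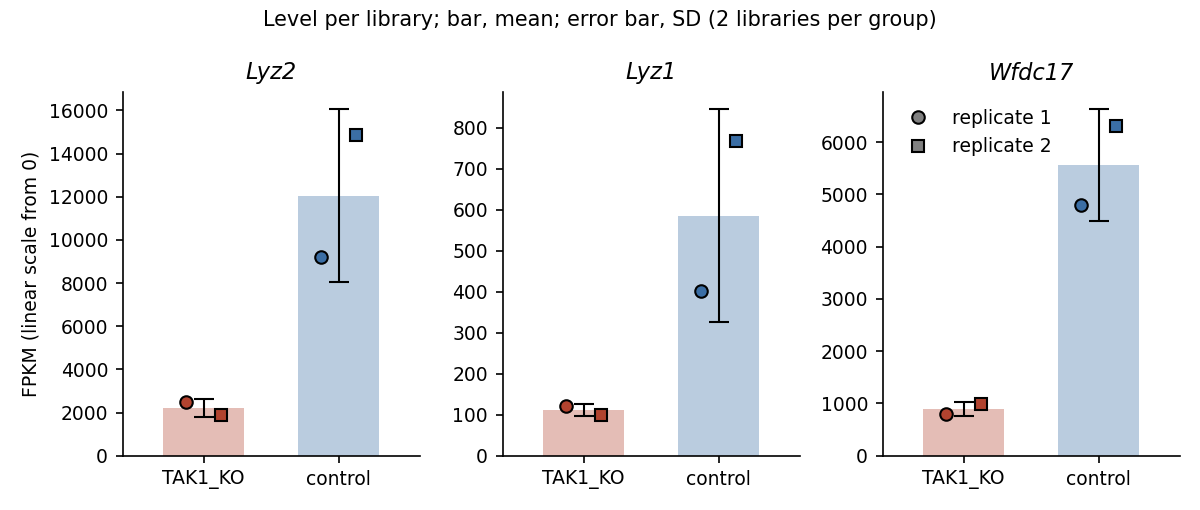
FPKM of Lyz2, Lyz1 and Wfdc17 on linear axes from 0, with TAK1_KO left of control, points for libraries, bars for means and error bars for SD (2 libraries per group). Lyz2 lies at 1894 and 2484 FPKM in TAK1_KO and at 9227 and 14879.7 FPKM in control, and in each panel both knockout points lie below both control points.

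In all 3 genes each knockout lay below each control, and all 3 passed the filter on low values, set at an average of 1 FPKM across all libraries. Of the 7823 genes that passed it, 890 (11.4%) lay below both controls and 2174 (27.8%) above. Of the 1177 genes averaging 100 FPKM or more, to which the 3 genes belong, 312 (26.5%) lay below and 224 (19%) above, and of the 134 at 1000 FPKM or more 48 (35.8%). The median log2 difference was 0.94 over the tested genes and -0.11 over those averaging 100 FPKM or more, so the 3 genes stood under either. Since the genes were chosen with these values known, nothing is read from their count. By size of the log2 difference, Wfdc17 was sixth and Lyz2 eighth from the lower end among the 134 genes at 1000 FPKM or more. Among the 1177 genes, Wfdc17, Lyz2 and Lyz1 were 43rd, 48th and 52nd.

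By rank within a library, which no scaling between libraries can move, Lyz2 was the 32nd and 49th most abundant of 15586 genes in TAK1_KO 1 and 2, against the 11th and 7th in control 1 and 2. Wfdc17 ranked 152nd and 117th in the knockouts against 22nd and 16th in the controls. Lyz1 ranked 1091st and 1244th in the knockouts against 425th and 207th in the controls. All 3 genes thus had a worse rank in each knockout than in each control, and Lyz2 stayed within the first 50 genes in all 4 libraries. The order of level was Lyz2, Wfdc17, Lyz1 in each library, and the intervals of mean ± SD of neighbours in that order did not overlap within either group.

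**Figure D2:**
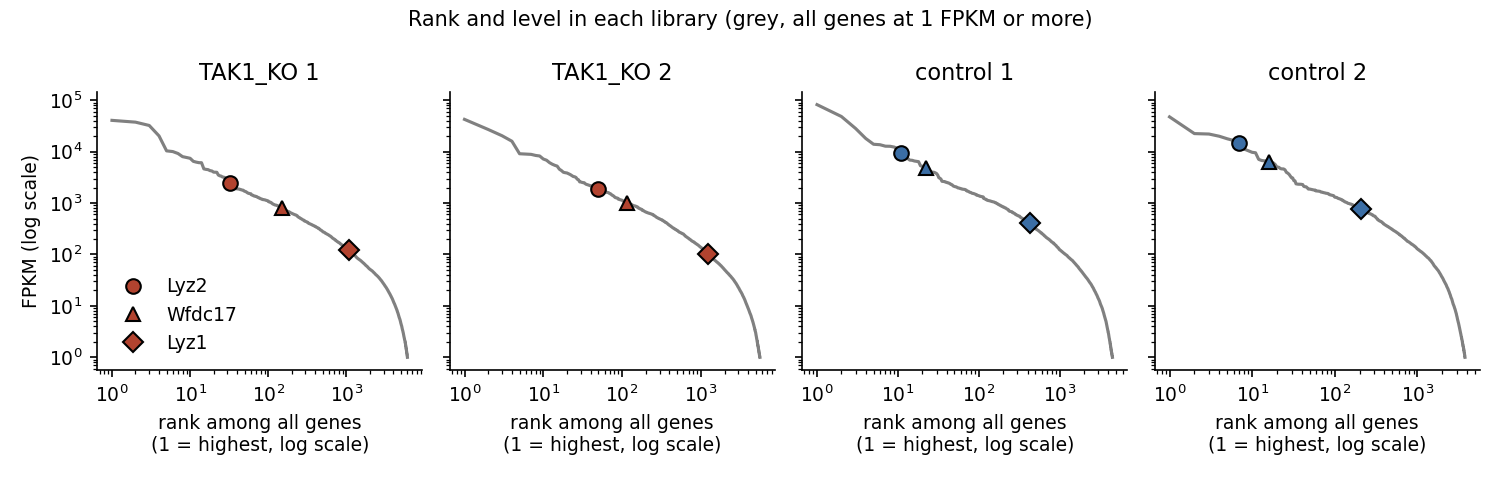
FPKM against rank (1 is the highest) in each library, both axes on log scales, with grey lines for all genes at 1 FPKM or more and symbols for Lyz2, Wfdc17 and Lyz1. Lyz2 sits at rank 32 and 49 in TAK1_KO 1 and 2 and at rank 11 and 7 in control 1 and 2, and the other symbols also lie further right in the knockouts.

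The genes next to them in rank by mean level did not share one pattern. Ubb (polyubiquitin) and Calm2 (calmodulin), just above and below Lyz2, had log2 differences of 0.50 and 0.17. Spp1 (osteopontin) and Rps27 (a ribosomal protein), next to Wfdc17, had differences of -1.67 and -0.78. Cd209a, a lectin of dendritic cells next to Lyz1, read 1.19 and 2.10 FPKM in the knockouts and 503 and 886 FPKM in the controls, and Tomm5, a subunit of the mitochondrial import pore, had a difference of -0.47.

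As a share of all FPKM in a library, the 3 genes together made up 0.413% and 0.368% in TAK1_KO 1 and 2, against 1.49% and 2.54% in control 1 and 2. Lyz2 alone made up 0.302% and 0.233% in the knockouts and 0.951% and 1.72% in the controls. Shares, like levels, therefore showed no overlap between the groups.

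Within the lysozyme pair the proportion was nearly the same in every library. Lyz1 made up 4.64% and 5.01% of the summed Lyz1 and Lyz2 FPKM in TAK1_KO 1 and 2, against 4.17% and 4.91% in control 1 and 2. These groups overlapped, with means of 4.83% ± 0.26 in knockouts and 4.54% ± 0.53 in controls (SD, n = 2 each). Whether reads shared between the 2 transcripts contribute to this proportion was not tested. The ratio of Lyz2 to Wfdc17 was 3.12 and 1.91 in the knockouts and 1.92 and 2.36 in the controls, again overlapping.

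The libraries showed the markers of the labelled cell type: 13 of 15 microglia markers were at 1 FPKM or more in every library. Rod photoreceptor markers gave the same count, 13 of 15, so it does not set the labelled cell type apart. Of the 15 microglia markers, 8 (53.3%) lay above both controls in the knockouts and 2 (13.3%) below, against 27.8% and 11.4% of all tested genes. Among the abundant ones, Gpr34, a receptor gene, lay above both controls and Aif1, the gene of the microglial protein IBA1, below. FPKM summed to between 812009 and 823229 in the knockouts and between 863652 and 969700 in the controls, and the number of reads is unknown. In TAK1_KO 1 and 2, 6055 and 5628 genes were at 1 FPKM or more, against 4481 and 3777 in control 1 and 2. At 1000 FPKM or more there were 111 and 115 genes, against 163 and 143. The controls thus had fewer detected genes and more very abundant ones. The part of this in the levels and ranks of Lyz2, Lyz1 and Wfdc17 was not tested. Some genes had a value near 0 in 1 library and a high one in its replicate, so genes are given per library. This was not confined to genes of low level. Pf4, a marker of border macrophages averaging 168 FPKM, read 0.51 and 303 FPKM in TAK1_KO 1 and 2, against 367 and 1.04 FPKM in control 1 and 2. The deleted gene is Map3k7, the gene of TAK1. It read 0.02 and 0.08 FPKM in the knockouts and 0.03 and 0 FPKM in the controls, too low in both groups to check the labels.

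Marker sums of other cells also differed between these libraries. For the counts that follow, 11.4% of all tested genes lay below both controls and 27.8% above. Among genes averaging 100 FPKM or more these shares were 26.5% and 19%. The 12 monocyte markers in the table summed to 195 and 214 FPKM in TAK1_KO 1 and 2, against 890.1 and 1680 FPKM in control 1 and 2. Ms4a4c, Ccr2 and Itga4 lay below both controls among 9 tested, and none lay above. Ccr2 read 1.81 and 0.59 FPKM in the knockouts and 316 and 151 FPKM in the controls. Itga4 read 0.03 and 0.01 FPKM in the knockouts and 0.49 and 23.3 FPKM in the controls, so its place below rested on a value near 0. Ms4a4c alone gave 417 and 1211 FPKM of the control sums, and Ly6c1 read 91.7 FPKM in TAK1_KO 2 and at most 0.15 FPKM elsewhere. The 10 dendritic cell markers summed to 38.1 and 61.3 FPKM in the knockouts and 569.9 and 1048 FPKM in the controls. Of these, 3 of 5 tested lay below (Cd209a, Batf3 and Clec10a) and none above, and Xcr1 was at 0 throughout. Batf3 differed little, at 36.9 and 34.2 FPKM in the knockouts and 42.8 and 49.1 FPKM in the controls. Clec10a read 0 FPKM in both knockouts and 24.1 and 0.10 FPKM in the controls, so its place below rested on a value near 0. Cd209a alone gave 503 and 886 FPKM of the control sums, and Cd24a read 24.8 FPKM in TAK1_KO 2 and at most 0.04 FPKM elsewhere. The 11 markers of perivascular and border macrophages summed to 300.2 and 930.2 FPKM in the knockouts and 2437 and 2210 FPKM in the controls, with 2 of 10 tested below (Ms4a7 and Clec12a) and none above. Ms4a7 alone gave 1614 and 1547 FPKM of the control sums, and F13a1, Cbr2, Lyve1 and Stab1 were highest in TAK1_KO 2, at 119, 96.7, 61.8 and 6.64 FPKM. The 5 neutrophil markers in the table summed to 24.1 and 33.2 FPKM in the knockouts and 25.3 and 0.27 FPKM in the controls, with Lcn2 at 0 throughout. The 15 rod photoreceptor markers summed to 6442 and 9440.4 FPKM in the knockouts and 2278 and 3346 FPKM in the controls, with 12 above both controls and none below. The part of these markers in the levels of Lyz2, Lyz1 and Wfdc17 was not tested. In libraries of pooled cells, fewer cells of a type and less RNA per cell cannot be told apart.

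The limma test over all 7823 genes, at an adjusted p under 0.05 after Benjamini-Hochberg adjustment, called 0 genes lower (0%) and 0 higher (0%), with a smallest adjusted p of 0.547. At an unadjusted p under 0.05 limma gave 602 genes (7.7%). The count of calls rested on the knockout libraries: it was 701, of which 697 were higher, without TAK1_KO 1 and 1311, of which 1306 were higher, without TAK1_KO 2. None of the genes described below was called, and they are given by their values and counts. All lists were drawn up with results of these data known.

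Of the lysozyme family, 2 further genes were in the table, and neither reached the filter. Lyzl1, a lysozyme-like gene, read 0 and 0.10 FPKM in the knockouts and 0 in both controls, and Lyg2, a goose-type lysozyme gene, was listed at 0 in all 4 libraries.

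Of the other genes with a WAP domain, 5 were in the table and 2 were tested. Wfdc18 lies 2734 bases from Wfdc17 on chromosome 11 (83709004 to 83711360, GRCm38.p6), and its coding sequence aligned to that of Wfdc17 with 79.7% identity. It read 0 and 0.21 FPKM in TAK1_KO 1 and 2, against 63.2 and 56.2 FPKM in control 1 and 2 (limma adjusted p = 0.559), so it too lay below both controls, at levels far under those of Wfdc17. Wfdc10 read 40.3 and 0 FPKM in the knockouts and 0 and 17.1 FPKM in the controls, with no order by group. Wfdc5 was at most 0.03 FPKM in any library, and Wfdc1 and Wfdc3 were listed at 0 in all 4.

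The genes around the lysozyme pair had low levels. Of the 8 nearest protein-coding genes, 4 on each side, all were in the table and 4 were tested, and none of these 4 lay below both controls (limma adjusted p from 0.698 to 0.832), where 11.4% of all tested genes did. Cct2, a chaperonin subunit, read 27.0 and 61.7 FPKM in the knockouts and 46.6 and 0.13 FPKM in the controls. Yeats4, a chromatin reader, read 81.7 and 7.36 FPKM in the knockouts and 31.3 and 0.26 FPKM in the controls. Cpsf6, an mRNA cleavage factor, and Mdm2, the ubiquitin ligase of p53, were each at most 32.5 FPKM. Cpm, Slc35e3 and 9530003J23Rik were at most 3.52 FPKM in any library. Frs2, also under the filter, read 0 FPKM in both knockouts and 1.29 and 0.03 FPKM in the controls.

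Around Wfdc17, a stretch of chemokine genes on chromosome 11, 6 of the 8 nearest genes were in the table and tested, and 3 lay below both controls, where the share was 11.4% of all tested genes and 26.5% of those averaging 100 FPKM or more. These were Wfdc18 and the chemokine genes Ccl3 and Ccl9. Ccl3 read 1430.0 and 1848 FPKM in the knockouts and 4243 and 2317 FPKM in the controls. Ccl9 read 61.4 and 57.2 FPKM in the knockouts and 67.8 and 83.5 FPKM in the controls. Ccl6, at 696 and 713 FPKM in the knockouts and 1055 and 564 FPKM in the controls, overlapped between groups. Ccl4 also overlapped, at 1140.5 and 879 FPKM in the knockouts and 1223 and 778 FPKM in the controls. Heatr6 was at most 2.16 FPKM. The limma adjusted p for these 6 genes ranged from 0.559 to 0.979. Ccl3 and Ccl4 overlap in the annotation, and the sources used here do not say whether counting used strand, so their values may share reads.

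Of 37 tested genes for other secreted proteins of myeloid cells, 6 (16.2%) lay below both controls and 10 (27%) above, shares near the 11.4% and 27.8% of all tested genes. Of all genes averaging 100 FPKM or more, as 27 of the 37 did, 26.5% lay below and 19% above. Their median log2 difference was 0.35, against 0.94 for all tested genes. The 27 of them averaging 100 FPKM or more also had a median of 0.35, against -0.11 for all genes at that level, so the side on which the list stood depended on the filter. Without control 2 the list median was -0.19, and without TAK1_KO 1 it was 0.11, where all tested genes had 1.04 and 0.64. Ccl12, a chemokine gene and the most abundant of the list, read 2287 and 8969 FPKM in the knockouts and 81986 and 22413 FPKM in the controls. Cst3 (cystatin C) read 37408 and 26937 FPKM in the knockouts and 28166 and 21980.5 FPKM in the controls, and Ctss (cathepsin S) read 32238 and 20338 FPKM in the knockouts and 18010.2 and 19906 FPKM in the controls. Ccl2, a monocyte-attracting chemokine, read 1164 and 8224 FPKM in the knockouts and 11395 and 4999 FPKM in the controls. Apoe (apolipoprotein E) read 9190.4 and 1647 FPKM in the knockouts and 4904 and 4968 FPKM in the controls. Among these 5 genes, Ccl12 lay below and Ctss above both controls, and the groups overlapped in Cst3, Ccl2 and Apoe. C1qb and C1qc, subunits of complement C1q named after their values were seen, lay above both controls. C1qb read 7990 and 3146 FPKM in the knockouts and 1897 and 835 FPKM in the controls, and C1qc read 4270.1 and 2317 FPKM in the knockouts and 1135 and 731 FPKM in the controls (limma adjusted p = 0.559 for both). The third subunit gene, C1qa, overlapped between groups, at 908 and 173 FPKM in the knockouts and 187 and 95.4 FPKM in the controls.

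Of 13 tested antimicrobial and granule proteins, the functional relatives of lysozyme, 2 (15.4%) lay below both controls and 4 (30.8%) above, again near the shares of all tested genes (11.4% and 27.8%). The median was 0.27, against 0.94 for all tested genes. It was -0.48 after quantile normalization and 1.06 without control 1, where all tested genes had 0.18 and 1.38. The 4 of them averaging 100 FPKM or more had a median of 0.57, against -0.11 for all genes at that level. The side on which this list stood thus also depended on the filter. Cyba, a subunit of the phagocyte oxidase, read 1369 and 1088 FPKM in the knockouts and 860.4 and 519.5 FPKM in the controls. Rnase4, a secreted ribonuclease, read 1694 and 1057 FPKM in the knockouts and 423 and 313 FPKM in the controls. Both lay above both controls. Ncf4, another oxidase subunit, read 213 and 184 FPKM in the knockouts and 114 and 237 FPKM in the controls. Mpeg1, the pore-forming protein perforin-2 of macrophages, read 115 and 66.3 FPKM in the knockouts and 149.6 and 169.7 FPKM in the controls, below both controls. Pglyrp1, a peptidoglycan recognition protein, also counted as below, at 0 FPKM in both knockouts and 0.40 and 98.2 FPKM in the controls. The other two above both controls were Ncf1, an oxidase subunit, and Zbp1, a nucleic acid sensor. Ang (angiogenin), at 37.8 and 1.24 FPKM in the knockouts and 181 and 0.65 FPKM in the controls, is transcribed from the same locus as Rnase4, so the values of both are uncertain.

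Of 8 tested protease inhibitors, the class to which many WAP proteins belong, 1 (12.5%) lay below both controls and 4 above, against 11.4% and 27.8% of all tested genes. The median of 0.95 was close to the 0.94 of all tested genes. It was 1.71 without control 1 and 0.20 without control 2, where all tested genes had 1.38 and 1.04. The 3 inhibitors averaging 100 FPKM or more had a median of 1.11, against -0.11 for all genes at that level. Serpine2, a secreted serine protease inhibitor, read 624 and 453 FPKM in the knockouts and 161 and 213 FPKM in the controls. Timp2, an inhibitor of matrix metalloproteases, read 49.4 and 68.7 FPKM in the knockouts and 29.3 and 38.3 FPKM in the controls, and Spint2, a Kunitz-type inhibitor, read 45.0 and 32.5 FPKM in the knockouts and 32.3 and 0.12 FPKM in the controls. These 3 and Serpinb9, an intracellular inhibitor of granzyme B, lay above both controls, and Spint1, the other Kunitz-type inhibitor of the list, lay below. Cstb (cystatin B), at 781 and 1132 FPKM in the knockouts and 861 and 218 FPKM in the controls, overlapped between groups.

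Among transcription factors of myeloid gene control, 7 of 36 tested (19.4%) lay below both controls and 9 (25%) above, against 11.4% and 27.8% of all tested genes. The median was 0.47, against 0.94 for all tested genes. It was -0.76 after quantile normalization, -0.24 without TAK1_KO 1 and 0.19 without control 2. Under these settings all tested genes had 0.18, 0.64 and 1.04. Fos, an AP-1 subunit, read 411 and 220.1 FPKM in the knockouts and 692 and 679 FPKM in the controls. Fli1, an Ets factor, read 26.4 and 75.2 FPKM in the knockouts and 159 and 178 FPKM in the controls. Egr1, an immediate-early factor, read 70.4 and 75.0 FPKM in the knockouts and 129.7 and 10.7 FPKM in the controls. Nfe2l2, the oxidative stress factor NRF2, read 80.6 and 59.8 FPKM in the knockouts and 27.9 and 90.3 FPKM in the controls. Fos and Fli1 thus lay below both controls, and Egr1 and Nfe2l2 overlapped. The factors named next were picked after their values were seen. Klf2, Irf8, Zeb2, Runx1 and Rel also lay below both controls. Irf8 read 10.2 and 8.72 FPKM in the knockouts and 35.1 and 24.2 FPKM in the controls. Spi1, which encodes PU.1, overlapped, at 10.6 and 60.6 FPKM in the knockouts and 7.39 and 17.4 FPKM in the controls. Cebpb lay above both controls, at 4.26 and 5.53 FPKM in the knockouts and 1.24 and 0.19 FPKM in the controls. Monocyte, dendritic cell and macrophage marker sums were lower and rod marker sums higher in the same knockout libraries. The part of any of these factors or markers in the levels of Lyz2, Lyz1 and Wfdc17 was not tested.

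**Figure D3:**
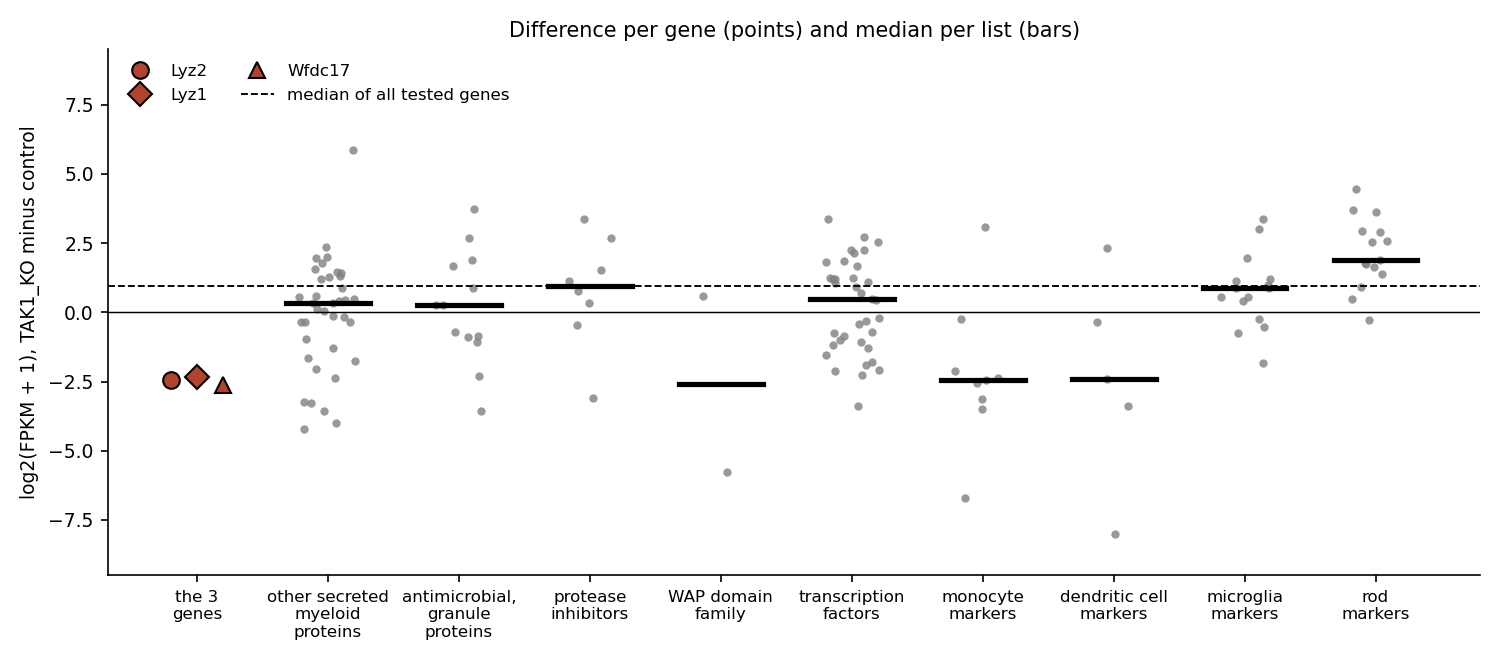
Difference of log2(FPKM + 1), TAK1_KO minus control, for Lyz2, Lyz1 and Wfdc17 (red) and for each tested gene of 9 lists (grey points, with a black bar at the list median); the dashed line is the median of all tested genes, 0.94. The 3 genes lie between -2.33 and -2.63, while genes of each of the secreted, antimicrobial, inhibitor and transcription factor lists lie on both sides of 0.

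Likeness of pattern was measured as the root mean square difference, over the 4 libraries, between the log2(FPKM + 1) values of 2 genes after each gene's mean was subtracted, for genes averaging 100 FPKM or more. Over so few libraries it is a description. Lyz1 was at a distance of 0.11 from Lyz2, closer than any of the 1174 genes outside the 3. Wfdc17 was at 0.29 from Lyz2, with 3 of the 1174 closer, where the median distance was 1.36. The 5 genes most alike to Lyz2 were Ifi204, an interferon-inducible DNA sensor family gene (0.19), Clec4a3, a C-type lectin of myeloid cells (0.27), Rap2b, a small GTPase (0.27), Crip1, a LIM-domain protein gene (0.30), and Ms4a4c, a membrane protein gene that is also in the monocyte list (0.31). The 5 most alike to Wfdc17 were Clec4a3 (0.14), Zc3hav1, an antiviral zinc finger protein gene (0.32), Zfp691, a zinc finger gene (0.35), Rap2b (0.35) and Mpc2, a subunit of the mitochondrial pyruvate carrier (0.36). Clec4a3 and Rap2b were on both lists. Clec4a3 read 135 and 154 FPKM in TAK1_KO 1 and 2, against 701 and 816 FPKM in control 1 and 2. Ifi204 read 49.98 and 28.5 FPKM in the knockouts and 199 and 311 FPKM in the controls, with control 2 the highest and TAK1_KO 2 the lowest, as for Lyz2.

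**Figure D4:**
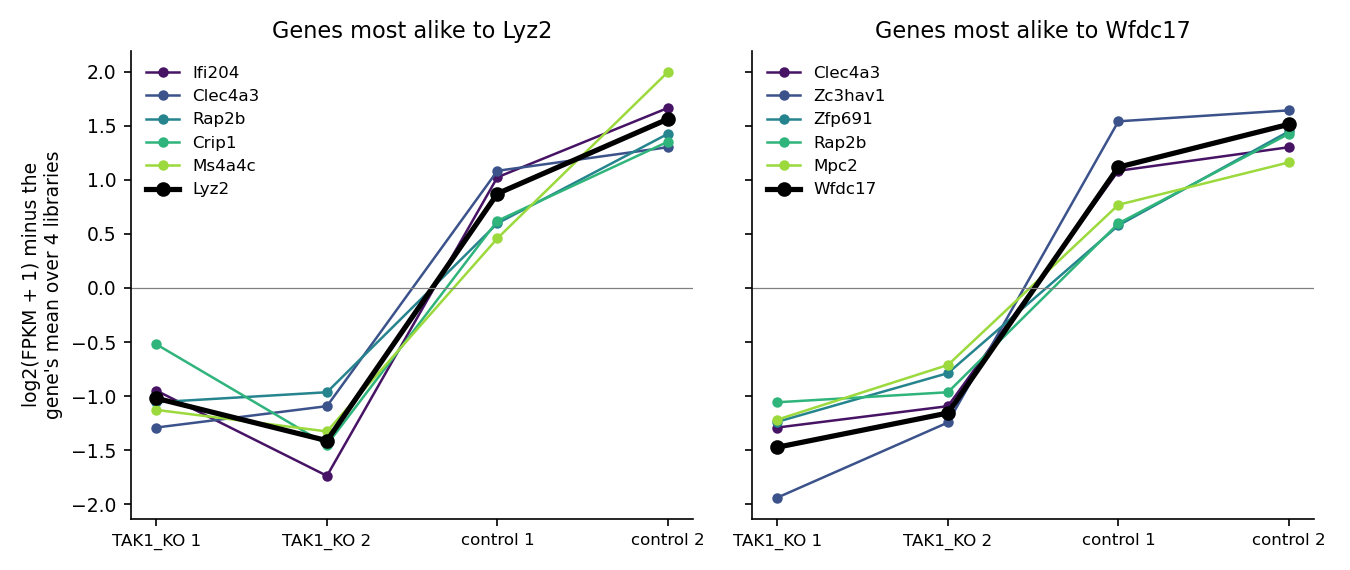
Log2(FPKM + 1) minus each gene's mean over 4 libraries, with TAK1_KO left of control, for Lyz2 (left) and Wfdc17 (right) in black and the 5 genes most alike to each in colour; lines join libraries only to guide the eye. The coloured lines follow the black one, with distances of 0.19 to 0.31 from Lyz2 and 0.14 to 0.36 from Wfdc17.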

How the data were processed

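The authors' deposited table holds 1 FPKM value per gene and library, rounded to 2 decimals. Per the labels' protocols, cDNA of the SMART-seq type was amplified by PCR from 200 sorted cells per library. Per the submitters' processing notes, mm10 was the genome build. The sources used here name no aligner, quantifier or annotation. FPKM keep no read counts, so the depth is unknown and no counting interval is given.

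Columns were matched to samples by title. log2(FPKM + 1) of the 7823 genes averaging 1 FPKM or more was tested with limma 3.58.1 (R 4.3.3, trended prior variance, Benjamini-Hochberg adjustment, threshold 0.05), and the code was tested on simulated data. The 3 genes, the lists and the tests were chosen with earlier results of these data known. Named genes were the 3 genes, the lysozyme and WAP families, the 5 most abundant of each other list, up to 3 abundant markers, neighbours in rank and on the chromosome, and the 5 most alike. Some genes this rule names are not reported here. Some genes of the lists, such as Slpi, Chil3 and S100a8, were not analysed here. Promoters were taken from RefSeq (GRCm38.p6) and transcripts from GENCODE M21, aligned with Biopython 1.88. Protein sequences were not used here. Alternatives were other pseudocounts, filters and scalings, an untrended variance, a replicate block and leaving out each library.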

Additional observations from a re-analysis of the deposited data

How the results depend on the processing

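Lyz2, Lyz1 and Wfdc17 kept a negative log2 difference under all 11 alternatives run for each: pseudocounts of 0.1 and 5 FPKM, equal sums, median ratio scaling, 2 quantile normalizations, the block and each library left out. Because each knockout lay below each control, another pseudocount or leaving out a library could not turn the sign. The block cannot move the difference in this balanced layout. Only the sizes under these settings are therefore informative. Without 1 library the difference ranged from -2.78 to -2.09 for Lyz2, from -2.80 to -1.86 for Lyz1 and from -2.83 to -2.43 for Wfdc17. Only for Wfdc17 after quantile normalization, over all genes or over the tested genes, was the shift, to -2.27, larger than the spread between replicates. That spread was 0.25 for Wfdc17, 0.40 for Lyz2 and 0.49 for Lyz1. Quantile normalization also took Lyz2 from -2.43 to -2.05 and Lyz1 from -2.33 to -2.23, within their wider spreads. The count of genes that limma called was 0 in the analysis reported, 0 after quantile normalization over all genes and 5 (3 lower, 2 higher) over the tested genes alone, the last added after the data were seen. Leaving out a library gave 0 to 1311 calls: 701 (4 lower) without TAK1_KO 1, 1311 (5 lower) without TAK1_KO 2, and 0 without either control. In these fits the lone library is assumed to vary like the other group. The replicate block gave 35 calls (20 lower, 15 higher), but the labels do not say whether same-numbered libraries belong together. Their deviations from the group means had a correlation of 0.017 over genes. With 2 libraries per group this cannot decide whether they were handled together. The median of the transcription factors was -0.76 after quantile normalization, where all genes had 0.18. Only 2 of them averaged 100 FPKM or more. The transcription factor median was -0.24 without TAK1_KO 1, where all tested genes had 0.64. The antimicrobial median was -0.48 after quantile normalization and -0.49 with a pseudocount of 0.1, where all tested genes had 0.18 and 1.26. That of the other secreted proteins was -0.19 without control 2, where all tested genes had 1.04. The causes were not tested. Of the 5 genes most alike to Lyz2, 1 remained after quantile normalization, and of those most alike to Wfdc17, 4. With a filter of 50 FPKM, 3 remained for Lyz2 and 4 for Wfdc17. With a pseudocount of 5 FPKM, 5 remained for Lyz2 and 3 for Wfdc17. Unknown depth and values near 0 limit all genes of low level, and values near 0 in 1 library also occurred in more abundant genes such as Pf4.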
